A study of Mus musculus with 5 samples.

Results

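C1q macrophages low in MHC class II are the macrophages of the mouse temporomandibular joint (TMJ) disc that hold RNA of the complement protein C1q but little or no RNA of the genes by which a cell shows peptides to helper T cells. The members were chosen by their own UMIs, the unique molecular identifiers that count captured RNA molecules. A cell with at most 30% of its UMIs from mitochondrial genes was retained, and a retained cell was a member where it held at least 3 UMIs of C1qa, C1qb and C1qc together, at least 1 UMI of Tyrobp or Fcer1g, no UMI of the endothelial gene Cdh5, and at most 1 UMI of H2-Aa, H2-Ab1 and H2-Eb1 together. This rule found 1147 members among 51688 retained cells of 5 libraries. The other 188 C1q macrophages held 2 or more MHC class II UMIs and served as the class with MHC class II.

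The TMJ disc, a fibrous pad between the jaw and the skull, was profiled by droplet single-cell RNA sequencing in C57BL/6 mice that carried no induced lesion at 4 ages, namely at 3 d and then at 3 w, 16 w or 78 w, and in 1 further library from injured discs. For the injured library the labels give wild-type mice wounded at 5 w and sampled 2 weeks later, at 7 w of age. The study's methods describe the injury in Myh11-CreER; Tm fl/- animals, a line in which tamoxifen switches on a reporter in cells of the smooth muscle lineage, so the genotype of this library is given in 2 ways. The oldest library is named 78 w in the labels, while its deposited data carry an age code of 16M, which may stand for months; the age in the labels was used. Pups of both sexes were pooled at 3 d, and males were used at 3 w, 16 w and 78 w. Every condition was 1 library, so no difference between conditions had a replicate check and none was tested. The libraries held 125130270, 125427849, 88998394 and 105309834 UMIs from 3 d to 78 w and 31585993 in the injured library. Members held a median of 11953, 10899, 10719 and 9593 UMIs at the 4 normal stages and 2531 in the injured disc, which was therefore the shallowest. The summed member UMIs were 3345078, 2627041, 992476, 1870479 and 1580509 in the same order. Levels are given in CPM, counts scaled to a sum of 1000000 per library, and all intervals are 95% intervals that cover counting error only.

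Resident tissue macrophages settle in organs before or soon after birth and persist beside cells that arrive later from blood monocytes. They clear dead cells and debris, produce C1q, and carry scavenger receptors such as the mannose receptor Mrc1, the haemoglobin receptor Cd163 and the hyaluronan receptor Lyve1. In joints, macrophages rich in Lyve1 and folate receptor Folr2 and poor in MHC class II lie along vessels and in connective tissue, whereas Trem2, Vsig4 and Cx3cr1 are known from the macrophages that line the joint cavity. MHC class II is switched on by the activator Ciita, and its surface form matures with the invariant chain Cd74 and the peptide loader H2-DM.

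The C1q genes of the rule lie side by side, as do its MHC class II genes. C1qa (ENSMUSG00000036887) spans 136895917 to 136898803 on the minus strand of chromosome 4 in GRCm38, next to C1qc from 136889804 to 136893065 and C1qb from 136880129 to 136886187. The MHC class II genes lie on chromosome 17, with H2-Ab1 from 34257689 to 34269419, H2-Aa from 34282744 to 34287823 and H2-Eb1 from 34305867 to 34316674. The 250 bases before the RefSeq start of H2-Aa (chr17:34287824-34288073, minus strand, build GRCm38.p6) and of H2-Eb1 (chr17:34305617-34305866, plus strand) are shown because these genes set the class. Capitals mark CTGATTGG, the Y box, a letter string known from MHC class II promoters, which begins 51 and 62 bases before the start. It was searched on both strands and is held by 3.83% of 32851 promoters of the same length, so a match is a description and not a site.
H2-Aa: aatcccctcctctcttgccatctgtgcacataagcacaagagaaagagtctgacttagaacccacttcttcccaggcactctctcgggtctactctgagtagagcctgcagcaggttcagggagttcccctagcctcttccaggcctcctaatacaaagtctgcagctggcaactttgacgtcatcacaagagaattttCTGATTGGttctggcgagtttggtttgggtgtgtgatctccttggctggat
H2-Eb1: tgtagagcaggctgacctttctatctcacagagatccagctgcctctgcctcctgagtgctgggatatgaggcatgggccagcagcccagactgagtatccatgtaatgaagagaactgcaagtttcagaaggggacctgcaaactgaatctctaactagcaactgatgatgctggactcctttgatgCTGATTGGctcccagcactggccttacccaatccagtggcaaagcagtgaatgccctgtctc

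Checked against the cell type label, members carried the macrophage markers and few or no UMIs of other leukocytes. All 14 fixed macrophage markers had UMIs in every library, and their summed level was 15399, 24158, 22390, 34881 and 14781 CPM from 3 d to the injured disc, against 48.1 to 126 CPM in stromal cells. The 14 include C1qa, C1qb and C1qc, on which the rule selected, and the stromal cells were chosen to lack Tyrobp and Fcer1g. This sum is therefore partly set by the selection and is a description. Of the 3 markers given for the cells, C1qa, which the rule itself selected on, was at 2012, 2775, 3228, 5083 and 1523 CPM, Mrc1 at 1150, 678, 698, 701 and 209 CPM, and the platelet chemokine Pf4 at 5741, 2358, 1705, 3276 and 1514 CPM. The defining monocyte gene Ly6c2 was at 0 in every library, and of the 6 monocyte markers the most abundant was the matrix gene Vcan at 25.9 to 108 CPM in the normal stages and Ccr2 at 36.7 CPM in the injured disc. None of the 4 matched T and NK cell markers was found, mast cell markers were found at 3 d only (1.79 CPM), and the summed neutrophil, B cell and Schwann cell markers stayed at or under 12.8 CPM in each library. Dendritic cell markers summed to 3.89 to 36.9 CPM, with Cd209a the most abundant at 78 w, and osteoclast markers to 9.07 to 91.4 CPM, nearly all of it Acp5. Microglial Sall1 was at 0 throughout. Endothelial markers summed to 9.07 to 30.4 CPM, skeletal muscle markers to 4.57 to 32.3 CPM, and mural markers to 169 CPM at 3 d, 61.7 CPM at 3 w and at most 30.4 CPM elsewhere.

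RNA of disc fibroblasts was the exception, and it was highest in the injured library. All 9 fibroblast markers had UMIs in the members of every library and summed to 7191, 16447, 12452 and 9099 CPM from 3 d to 78 w and to 37921 CPM in the injured disc, where Col1a1 alone reached 16386 CPM. In stromal cells the same 9 genes summed to 30989 to 69473 CPM. This RNA was not spread evenly. The median member held 1201, 572, 1084, 1141 and 4381 CPM of the 9 markers, while 53 of 259 (20.5%), 47 of 209 (22.5%), 14 of 79 (17.7%) and 24 of 176 (13.6%) members of the normal stages and 191 of 424 (45.0%, 40.2 to 49.9) of the injured disc held 10000 CPM or more. In the normal stages these members had more UMIs than the rest, with medians of 17701 to 21595 against 9216 to 11367. In the injured disc both sets were shallow (3029 against 2478 UMIs), and the members with much fibroblast RNA held a median of 7 C1q UMIs against 23. Doublets, free RNA and true expression cannot be told apart here, so the main results on the injured disc are given for all members and for the 206, 162, 65, 152 and 233 members under 10000 CPM, a limit that was set after the data had been seen. One 3 d member held 791233 CPM of haemoglobin RNA, and haemoglobin genes at 3 d (erythroid markers 3911 CPM in sum) also stood at 10503 CPM in stromal cells.

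Members were scarce in the normal disc and most frequent in the injured library. At 3 d they made up 1.73% of retained cells, with an interval of 1.53 to 1.95. The share was 2.23% (1.94 to 2.55) in the 3 w library and 0.900% (0.713 to 1.12) in the 16 w library. By 78 w it stood at 1.74% (1.49 to 2.01), and in the injured disc it was 5.01% (4.55 to 5.49). The intervals of 3 d and 78 w overlapped, 16 w lay under all other libraries and the injured library above them. Without the members rich in fibroblast RNA the shares were 1.38%, 1.73%, 0.741%, 1.50% and 2.75% (2.41 to 3.12), so the injured disc remained above each normal stage by a smaller margin. The share depends on how many other cells the digestion released, and which of the 2 moved was not tested.

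**Figure D1:**
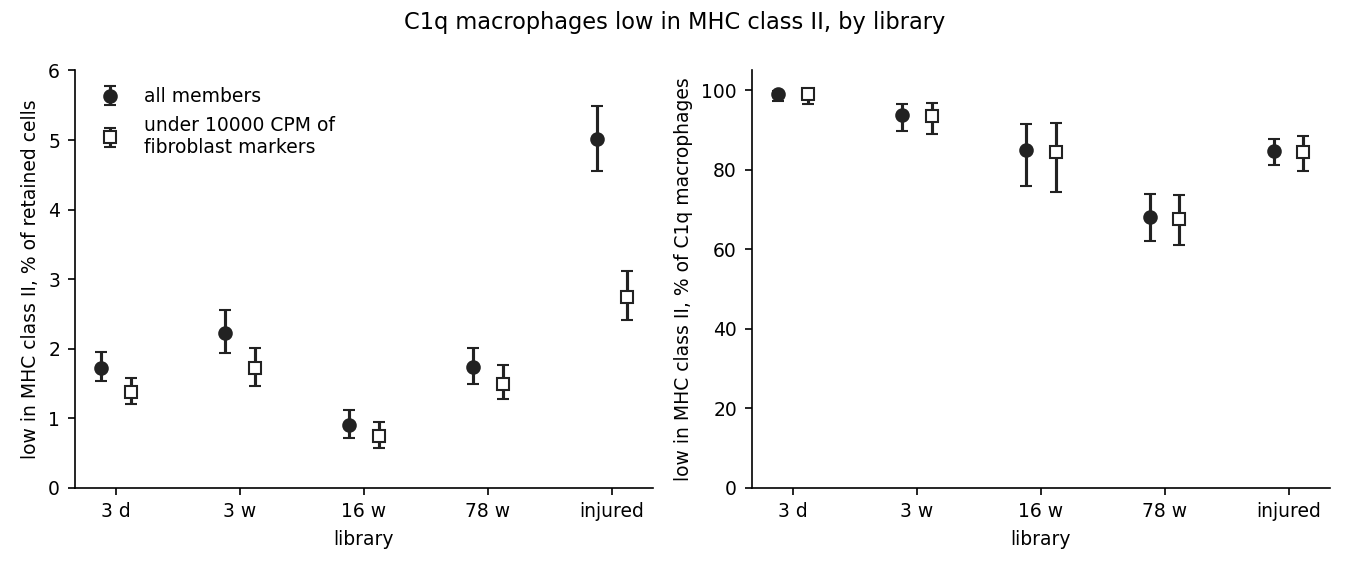
Share of retained cells that were C1q macrophages low in MHC class II (left, in %) and share of C1q macrophages that were low in MHC class II (right, in %), by library. Filled circles give all members, open squares members under 10000 CPM of fibroblast markers, and bars exact 95% intervals; the left share is 5.01% in the injured disc and 2.75% without the cells rich in fibroblast RNA, and the right share steps down from 99.2% at 3 d to 68.2% at 78 w.

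Among C1q macrophages the share low in MHC class II was smaller in each older normal library. The 3 d library gave 99.2% (97.3 to 99.9) and the 3 w library 93.7% (89.7 to 96.5). These were followed by 84.9% (76.0 to 91.5) in the 16 w disc and 68.2% (62.2 to 73.9) in the 78 w disc, against 84.8% (81.3 to 87.8) after injury. A shallow cell shows fewer MHC class II UMIs, so the shares were also read with each cell thinned to 2000 UMIs, where they were 99.6%, 97.0% (93.7 to 98.9), 91.5% (83.2 to 96.5) and 80.2% (74.6 to 85.0) by age and 85.3% (80.3 to 89.4) after injury. At this depth the 78 w interval overlapped those of 16 w and the injured disc. The rule sets this share, so it is a description. Cells with MHC class II numbered 2, 14, 14, 82 and 76, so the 3 d level of that class rests on 2 cells. Near the limit, 7, 12, 11, 35 and 26 members held exactly 1 MHC class II UMI, and 1, 3, 4, 13 and 12 cells were left out with 2. At the C1q limit the injured library held the most cells, with 36 members at exactly 3 C1q UMIs and 49 cells with 2 outside. At 3 w and 16 w no cell held 2 or 3, at 3 d 8 members held 3, and at 78 w 1 did. Of 51414 distinct retained barcodes 274 occurred in 2 or more libraries, but no barcode was a member in 2.

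**Figure D2:**
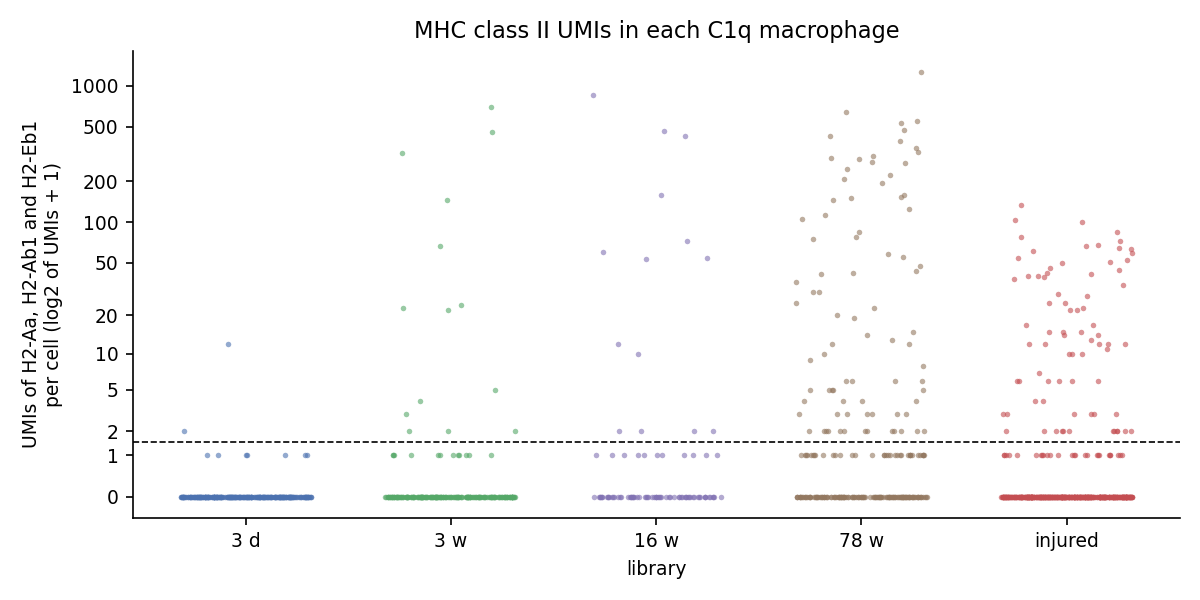
UMIs of H2-Aa, H2-Ab1 and H2-Eb1 together in each C1q macrophage, on a log2 scale of UMIs + 1, by library; each point is a cell, jittered sideways, and the dashed line separates members (below) from cells with 2 or more UMIs. Most cells sit at 0, and the cells above the line reach 12 UMIs at 3 d, 1256 at 78 w and 133 in the injured disc.

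Outside the rule genes, 10 of 18 resident macrophage genes tested were higher and 2 lower in the low class than in C1q macrophages with MHC class II, and of 16 inflammatory genes 5 were lower and none higher. Each library gave 1 sum per class, the 5 libraries served as blocks, and edgeR's quasi-likelihood test was run on 7034 genes with Benjamini-Hochberg adjustment, the 9 rule genes left out. It called 43 genes higher in the low class (0.611% of those tested) and 114 lower (1.62%). Of these, 41 were higher and 70 were lower in all 5 libraries. Since the classes were split on MHC class II, genes switched on together with it are not independent of the rule. Cd74, the invariant chain, was at 18.8, 6.47, 29.2, 29.9 and 39.2 CPM in members against 1230, 9992, 11956, 9424 and 5045 CPM in the other class (log2 fold -8.14 ± 0.48 SE, adjusted p = 4.024e-11, edgeR). The loaders H2-DMb1 (-4.04 ± 0.22, adjusted p = 1.421e-11, edgeR) and H2-DMa (-4.57 ± 0.36, adjusted p = 8.248e-09) were also lower, in all 5 libraries. Of the 13 genes of class II presentation outside the rule 7 were tested, and these 3 passed.

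Lyve1 was at 521, 389, 1344, 1732 and 121 CPM in members and at 0, 58.1, 280, 610 and 10.4 CPM in the class with MHC class II, higher in members of every library (log2 fold 2.23 ± 0.29, adjusted p = 1.826e-05, edgeR). Vsig4, a receptor for complement fragments, stood at 4.19, 155, 292, 557 and 107 CPM against 0, 0, 137, 115 and 10.4 CPM (2.12 ± 0.32, adjusted p = 0.0001642, edgeR). Among the named genes higher in members, the largest difference was that of Dlk1, a membrane protein of the Notch ligand family. Dlk1 was at 224, 78.0, 62.5, 59.9 and 74.0 CPM against 28.6, 5.81, 6.23, 2.43 and 20.8 CPM (2.93 ± 0.36, adjusted p = 8.725e-06, edgeR). The synaptic vesicle protein gene Syngr1 followed (2.91 ± 0.43, adjusted p = 0.0001329, edgeR). The other named genes with higher levels, 1810011O10Rik, Ctla2a, the aldo-keto reductase Akr1b8, the sphingosine-1-phosphate receptor S1pr1, the endosomal receptor Tlr13, the calcium channel subunit Cacna1a, the adaptor Dok3 and Uaca, had log2 folds of 2.13 to 1.48, and of these 8 all but 1810011O10Rik lost their call in DESeq2. Of 20 resident macrophage genes 18 were tested, and 10 were higher in members, namely Lyve1, Folr2, F13a1, Gas6, Sepp1, Cbr2, Stab1, Maf, Ltc4s and Fcgrt. In this list the lectin receptors Cd209f (-1.97 ± 0.50) and Clec10a (-1.52 ± 0.36) were lower. The median log2 fold of the list was 0.99. Mrc1 (0.54, adjusted p = 0.4192, edgeR) and Pf4 (0.92, adjusted p = 0.09337) did not pass the test.

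The genes lower in members included Il1b, which encodes the inflammatory cytokine interleukin-1 beta, at 78.3, 112, 3.02, 17.6 and 9.49 CPM against 400, 1249, 673, 490 and 169 CPM in the class with MHC class II (log2 fold -4.24 ± 0.39, adjusted p = 7.271e-08, edgeR). Ccr2, the receptor that draws monocytes out of the marrow, was at 7.17, 1.14, 0, 9.09 and 36.7 CPM against 572, 63.9, 118, 86.3 and 75.3 CPM (-3.81 ± 0.54, adjusted p = 6.148e-05, edgeR). The gap was smallest in the injured disc. Il7r, the interleukin-7 receptor (-4.65 ± 0.36, adjusted p = 4.861e-09, edgeR), and the cystine transporter Slc7a11 (-3.96 ± 0.29, adjusted p = 1.56e-09) were lower as well. Plbd1, Clec4b1, Bcl2a1a, Rab11fip1 and Flrt3 completed the named set at log2 folds of -5.82 to -3.80, and Bcl2a1a shares near-identical sequence with its family, so its value is uncertain. Among 20 inflammatory genes, 5 of 16 tested were lower, Il1a, Il1b, Il1rn, the prostaglandin synthase Ptgs2 and Nlrp3, and none was higher. Of 18 chemokines tested, Ccl6 and Cxcl3 were lower. Of 18 genes of lipid handling, Lpl, Fabp5, Lgals3 and Pparg were lower. Of 22 surface receptors, Csf2rb, Ccr2 and Cd14 were lower and Tlr13 and Tgfbr2 higher. The dendritic cell marker Cd209a was lower too (-2.94 ± 0.61, adjusted p = 0.007145, edgeR, 4 of 5 libraries), and the part of dendritic cells or doublets in the class with MHC class II was not tested. No gene of the interferon, iron, class I or heat shock lists passed, with 15, 13, 9 and 19 tested.

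In each of the other lists at most 4 genes passed the same edgeR test. They were 1 higher and 3 lower of 24 lysosomal genes (Ctsh, Lyz1 and Gm2a lower), 2 higher and 1 lower of 18 growth factors (Gas6 and Nrp1; Areg), 1 higher and 2 lower of 20 transcription factors (Maf; Runx3 and Etv3), and 1 higher and 1 lower of 10 complement genes and of 16 matrix genes (Timp2; Mmp19). Of 10 synovial lining genes 2 were higher, Vsig4 among them, of 16 scavenger receptors Stab1 and Lyve1 were higher, of 12 cell cycle genes Top2a was lower, and of 3 sex-linked genes none passed. The count of called genes rested most on the 78 w library, which held 82 of the 188 cells with MHC class II. Without it 69 genes passed, against 117 to 169 without any other library. Fitted without the library as a block, 14 genes passed, all lower in members, and the calls of Il1b, Ccr2 and Bcl2a1a were lost with those of the 12 named genes higher in members.

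**Figure D3:**
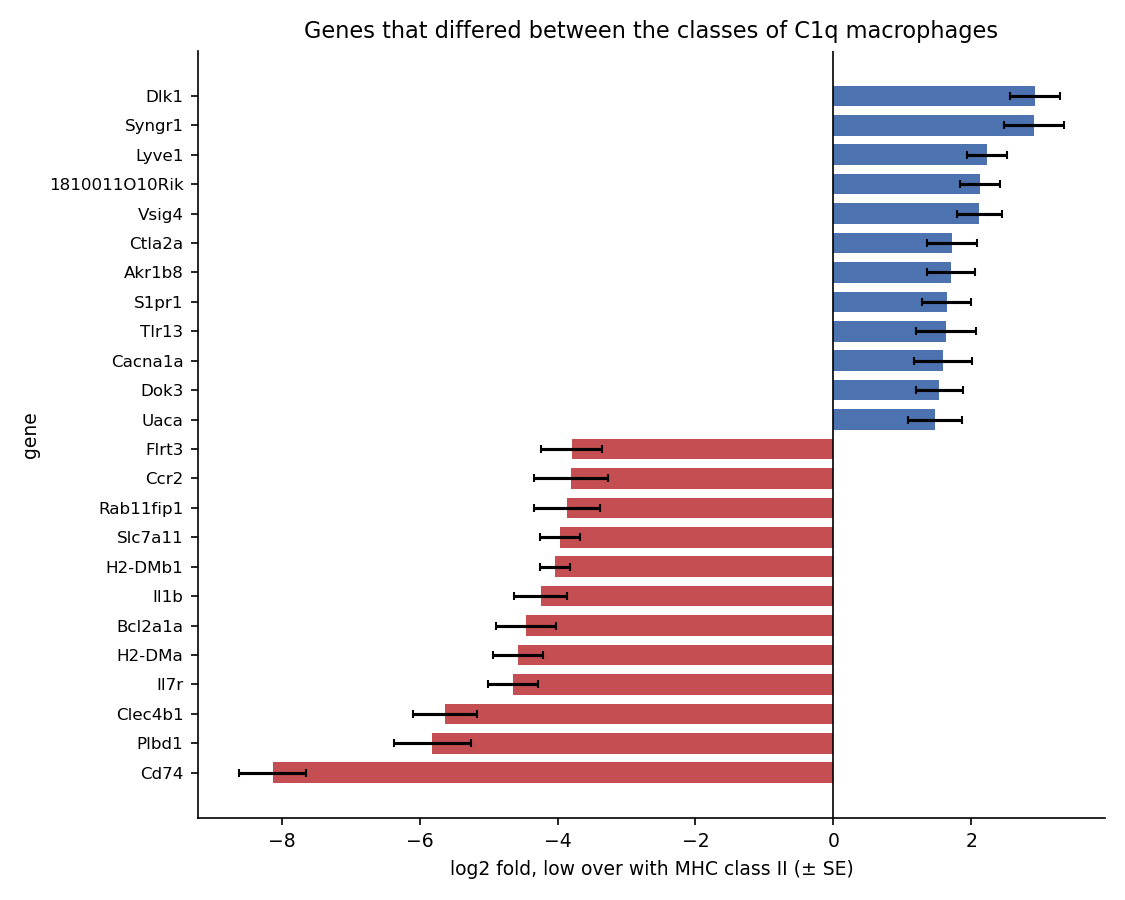
Log2 fold of low over with MHC class II for the 24 named genes (12 higher and 12 lower), with SE as bars, from sums of 5 libraries in 2 classes. Dlk1 and Syngr1 lead the genes higher in members at 2.93 and 2.91, and Cd74 leads those lower at -8.14.

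The members were not one uniform set, and their makeup differed between ages. To compare depths, each cell was thinned to 2000 UMIs, which left 229, 202, 76, 169 and 263 members. These include the members rich in fibroblast RNA, which were most frequent in the injured disc. There the macrophage markers summed to 14781 CPM over all members, beside 29113 CPM in those under 10000 CPM of fibroblast markers. The part of fibroblast RNA in the injured shares was not tested. Lyve1 was detected in 47.2% (40.6 to 53.8), 38.6% (31.9 to 45.7), 68.4% (56.7 to 78.6) and 77.5% (70.5 to 83.6) of members from 3 d to 78 w, and in 12.9% (9.12 to 17.6) in the injured disc. The first pair of ages and the second pair each overlapped, and the pairs did not. Vsig4 was found in 0.873%, 11.4%, 25.0% and 48.5% (40.8 to 56.3) of members in order of age (intervals 0.106 to 3.12, 7.36 to 16.6 and 15.8 to 36.3 for the first 3), and in 8.75% (5.62 to 12.8) in the injured disc. Folr2 was in 32.8%, 42.1%, 35.5% and 58.0% (50.2 to 65.5), and in 25.5% after injury. Timd4, a receptor for dying cells known from long-lived resident macrophages, was in 1.75%, 3.96%, 9.21% and 8.28%, with overlapping intervals at the last 3 ages. Stromal cells of the same depth, which should lack these genes, held a UMI of any 1 of these 4 genes in at most 0.439%. Without thinning Lyve1 was in 66.4%, 58.4%, 81.0%, 90.9% and 16.0% of members, Vsig4 in 2.32%, 18.2%, 38.0%, 63.1% and 9.20%, Folr2 in 70.7%, 79.9%, 74.7%, 86.9% and 35.6%, and Timd4 in 5.79%, 14.8%, 30.4%, 29.5% and 2.12%.

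Mrc1 was detected in 81.2% (75.6 to 86.1) of members at 3 d, in 59.9%, 64.5% and 67.5% at the later ages and in 30.8% (25.3 to 36.8) after injury. All shares in this paragraph again include the members rich in fibroblast RNA. Pf4 was in 94.8%, 88.6%, 88.2%, 92.3% and 77.9% (72.4 to 82.8), against 2.57% of stromal cells at 3 d and at most 0.726% elsewhere. Cx3cr1, the fractalkine receptor, was in 19.7% (14.7 to 25.4) at 3 d and in 7.92%, 10.5%, 6.51% and 9.89% of the other libraries. Trem2, a lipid sensor, was in 34.9%, 55.9% (48.8 to 62.9), 32.9%, 50.9% and 49.8%. Without thinning these 4 genes were in up to 93.3% (Mrc1), 98.9% (Pf4), 43.2% (Cx3cr1) and 88.5% (Trem2) of the members of a library. The same cells often carried Lyve1 and Vsig4 at 78 w, with Vsig4 in 71 of 131 cells with Lyve1 (54.2%). Of 82 cells with Vsig4, 86.6% had Lyve1. Lyve1 and Folr2 shared 83 cells at 78 w, 63.4% of the first and 84.7% of the second. Vsig4 and Cx3cr1 shared 5 of 82 and 11 cells. Detection of any pair rises with a cell's RNA, so these overlaps are descriptions.

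**Figure D4:**
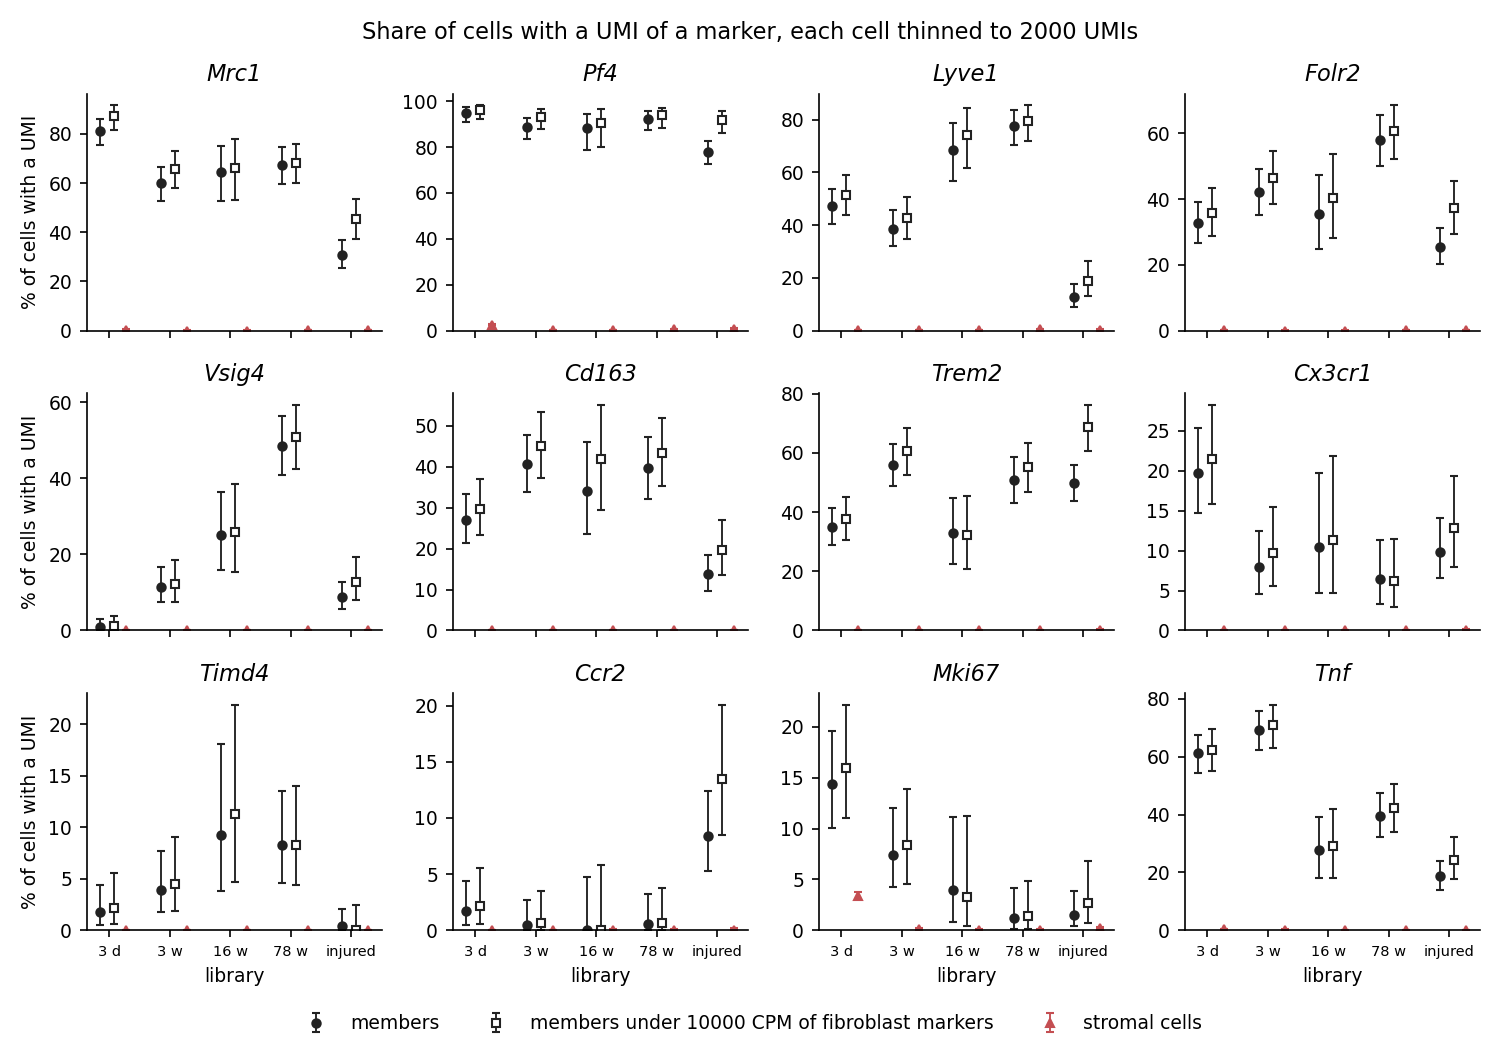
Share of cells (in %) with at least 1 UMI of 12 markers after each cell was thinned to 2000 UMIs, by library, with exact 95% intervals; filled circles are all members, open squares members under 10000 CPM of fibroblast markers and red triangles stromal cells. Over all members Lyve1 and Vsig4 climb to 77.5% and 48.5% at 78 w and stand at 12.9% and 8.75% in the injured disc, where Ccr2 is at 8.37%.

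Between 3 d and 3 w the members' profile differed more than at any later step. Of 6780 genes with at least 50 UMIs in the library with the higher level, 1033 (15.2%) were at least 2-fold higher at 3 w and 786 (11.6%) lower. The genes with the largest ratios by the naming rule were matrix and lubricant genes of the fibroblasts (Myoc, Angptl7, Comp, Cilp2, Chad and Prg4) and, in the other direction, 4 haemoglobin genes, near-identical in pairs, with Xist and H19. Prg4 had no difference in members under 10000 CPM of fibroblast markers (log2 ratio -0.01). Genes at least 2 times above their level in stromal cells were therefore also counted, a choice made after seeing the values. The stromal level was read in the library with the higher member level, so the difference itself helps to set which genes enter, and these counts are descriptions. At 3 w over 3 d 360 (24.6%) of 1465 were higher and 201 (13.7%) lower. Among these, Lyz1 led the genes higher at 3 w. Lyz2, the lysozyme of macrophages, was at 1279 CPM at 3 d and at 9956, 9058 and 15091 CPM afterwards, 7.78-fold higher (7.54 to 8.04) at 3 w than at 3 d. Lyz1 was at 1.20, 59.8, 149 and 300 CPM, but its reads may be shared with the near-identical Lyz2. Vsig4 was 37.1-fold higher at 3 w (21.9 to 68.5). Gdf15, a stress-induced growth factor, was at 162, 2682, 975 and 2613 CPM, and the haem-degrading enzyme Hmox1 at 925, 4462, 3317 and 5651 CPM. Spic, a transcription factor of macrophages that recycle iron, was at 1.49, 59.4, 11.1 and 42.8 CPM.

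Several interferon genes were far higher in newborn members than at later ages, and others were not. Ifit1, an interferon-induced RNA-binding protein, was at 809 CPM at 3 d and at 7.61, 5.04 and 21.9 CPM at 3 w, 16 w and 78 w, 106-fold lower at 3 w (68.7 to 174). It had UMIs in 52.5% of 3 d members and in 2.53% to 6.82% of those of the later normal ages. Cxcl10, a chemokine for T cells, was at 2905, 92.9, 111 and 65.8 CPM, and Rsad2, an antiviral enzyme, at 447, 33.5, 10.1 and 42.8 CPM. Ifnb1, interferon beta itself, had 377 UMIs in 63 members at 3 d (113 CPM), 7 UMIs in 1 cell at 3 w and none at 16 w or 78 w, where the ratio to 3 d is at least 70.3-fold lower at 78 w. Stromal cells of 3 d held 15.2 CPM of Ifit1 and 67.4 CPM of Cxcl10. Of 20 interferon genes 15 were tested at 3 w over 3 d, of which 7 were lower and 3 higher, with a median log2 ratio of -0.68 beside 0.002 over all genes tested. Ifi27l2a (461, 1241, 1099 and 1804 CPM), Ifitm3 and Ly6e went the other way. The promoters of Ifit1 (chr19:34640639-34640888, plus strand), Rsad2 (chr12:26456453-26456702, minus strand) and Cxcl10 (chr5:92348890-92349139, minus strand) are printed because these genes have the largest ratios of 3 d to 3 w in the interferon list. Capitals mark GAAA followed by any 2 bases and GAAA, the core letters of the interferon-stimulated response element, or the reverse complement of these letters, which begins 104 and 85 bases before the start in Ifit1, 120 in Rsad2 and 213 in Cxcl10. Of the 20 list genes 13 had a promoter in the table and 8 of these hold the letters, beside 2.98% of all 32851 promoters.
Ifit1: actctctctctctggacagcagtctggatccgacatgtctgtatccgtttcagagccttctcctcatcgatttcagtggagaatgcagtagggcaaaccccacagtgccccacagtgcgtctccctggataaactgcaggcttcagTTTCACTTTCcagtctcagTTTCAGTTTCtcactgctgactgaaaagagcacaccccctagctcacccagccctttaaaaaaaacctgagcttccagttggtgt
Rsad2: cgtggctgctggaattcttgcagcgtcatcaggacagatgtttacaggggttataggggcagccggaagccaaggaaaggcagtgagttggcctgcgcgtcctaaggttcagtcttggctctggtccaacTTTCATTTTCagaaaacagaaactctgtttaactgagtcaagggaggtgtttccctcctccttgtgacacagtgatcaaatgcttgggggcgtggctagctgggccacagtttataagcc
Cxcl10: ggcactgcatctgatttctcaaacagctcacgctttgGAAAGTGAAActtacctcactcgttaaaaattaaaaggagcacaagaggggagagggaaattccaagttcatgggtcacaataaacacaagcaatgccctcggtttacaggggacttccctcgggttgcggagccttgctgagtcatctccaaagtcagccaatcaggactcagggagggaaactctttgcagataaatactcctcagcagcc

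Some chemokines and cytokines were also highest in the newborn, with no common direction over the lists. Cxcl2, which draws neutrophils, was at 19566, 10685, 6315 and 11235 CPM from 3 d to 78 w. Ccl4 was at 5350, 507, 619 and 1274 CPM, 10.6-fold lower at 3 w than at 3 d (9.99 to 11.2), whereas its neighbour Ccl3 was at 1242, 1394, 1228 and 1640 CPM. Tnf, the tumour necrosis factor gene, was at 2165, 786, 259 and 315 CPM, and Ccl2 at 3595, 1771, 660 and 1704 CPM. Of 19 chemokines, 6 were lower and 4 higher at 3 w than at 3 d, and of 18 inflammatory genes 7 were lower and 4 higher, beside 11.6% lower and 15.2% higher over all genes. Pf4 was 2.43-fold lower at 3 w (2.37 to 2.51), and its relative Ppbp was at 77.7, 9.52, 1.01 and 1.07 CPM. A long enzyme digestion came before every library, and its part in these stress-responsive genes was not tested.

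Cell cycle genes were highest in 3 d members. All 20 cell cycle genes were tested at 3 w over 3 d, and 18 were lower and none higher, with a median log2 ratio of -3.03. At 78 w over 3 d the same counts held, 18 lower and none higher, with a median of -3.68. Over all genes tested 11.6% were lower and 15.2% higher at 3 w over 3 d. At 78 w over 3 d 15.2% of all genes were lower and 10.6% higher. Top2a, the topoisomerase of replicating cells, was at 138, 9.52, 31.2 and 5.35 CPM and was detected in 15.7% of thinned 3 d members, against 6.38% of stromal cells of that library. Mki67 was in 14.4% (10.1 to 19.6), 7.43%, 3.95% and 1.18% of members by age and in 1.52% after injury (40.5%, 19.6%, 5.06%, 3.98% and 2.12% without thinning), against 3.41% of 3 d stromal cells. Stmn1 was at 492, 91.0, 67.5 and 44.9 CPM, and Ube2c at 176, 14.8, 34.3 and 13.9 CPM. Pcna, the clamp of DNA polymerase, was at 100, 93.3, 86.7 and 88.7 CPM. The fetal RNA-binding protein gene Igf2bp3 was at 72.3, 9.14, 1.01 and 0 CPM, at least 45.1-fold lower at 78 w than at 3 d.

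Many genes of lipid handling and many macrophage transcription factors were higher at 3 w. Of 17 lipid genes tested, 12 were higher and 1 was lower than at 3 d, with a median log2 ratio of 1.20. The lipid carrier Apoe was at 1997, 6052, 3403 and 3234 CPM and the galectin Lgals3 at 838, 3262, 924 and 1706 CPM, so both were highest at 3 w. Of 19 transcription factors 12 were higher and 1 lower (median 1.21). Cebpb was at 268, 1614, 822 and 737 CPM and Etv3 at 20.6, 189, 108 and 137 CPM. Over all genes 15.2% were higher and 11.6% lower at this step, and 24.6% of those above the stromal level were higher. Of 24 lysosomal genes 7 were higher and none lower, of 21 surface receptors 8 higher and 1 lower, of 14 iron genes 5 higher and none lower, of 9 class I genes 3 higher and none lower, and of 9 lining genes 6 higher and 1 lower. H2-D1, a class I heavy chain, was at 807, 2068, 2477 and 2441 CPM. Cd86, which co-stimulates T cells, was at 52.3, 201, 135 and 104 CPM although class II stayed low by the rule, and 3 of 5 tested presentation genes outside the rule were higher and 1 lower. Of 17 resident genes 3 were higher and 2 lower, of 15 scavenger receptors 2 and 1, of 10 complement genes 4 and 2 (2 and 3 of 8 under the fibroblast limit), of 17 growth factors 3 and 1, of 19 early and heat shock genes 4 and 1, and of 16 matrix genes 8 and 1. The higher shares of the resident, scavenger and growth factor lists lay near the 15.2% of all genes. In the members under the fibroblast limit the matrix list gave 5 higher and 3 lower of 15. Its gene Sparc was at 5424 CPM in all 3 w members and 173 CPM in those under 10000 CPM of fibroblast markers.

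At 16 w, with 79 members the smallest group, 7 of 18 chemokines and 6 of 16 inflammatory genes were lower than at 3 w. In these lists 1 chemokine was higher, and 8 of 19 early and heat shock genes were higher too. Of 4606 genes tested, 144 (3.13%) were higher than at 3 w and 385 (8.36%) lower, with 96 and 531 under TMM scaling, and among 1185 genes above the stromal level 76 (6.41%) were higher and 174 (14.7%) lower. Il1b was at 112 CPM at 3 w, 3.02 CPM at 16 w (3 UMIs) and 17.6 CPM at 78 w. At 3 w Il1b was found in 23 members only, and 1 of them held 119 of its 294 UMIs. The lectin receptor Clec4e was at 159, 8.06 and 64.2 CPM, the fatty acid binding protein Fabp5 at 131, 9.07 and 17.1 CPM, the eotaxin Ccl24 at 331, 45.3 and 167 CPM and Ccr1 at 220, 32.2 and 157 CPM. Ccl5 at 3 w rested on 1 cell and is not read further. The lists gave 7 lower and 1 higher of 18 chemokines, 6 lower of 16 inflammatory genes, 9 lower of 16 lipid genes, 4 lower of 14 growth factors, 4 lower and 1 higher of 24 lysosomal genes, 4 lower and 1 higher of 15 scavenger receptors, 2 lower of 18 surface receptors and 9 lower of 16 matrix genes (5 lower and 1 higher of 13 under the fibroblast limit). The median of all genes at this step was -0.157 on the log2 scale. In the other direction, the chaperone gene Hspa1a was at 1355 CPM at 3 w, 11193 CPM at 16 w and 4664 CPM at 78 w, 8.26-fold higher at 16 w (7.96 to 8.58), and its near-identical copy Hspa1b was at 580, 8129 and 3898 CPM. Hsph1 was at 46.1, 968 and 217 CPM and Hsp90aa1 at 1097, 4803 and 1948 CPM. Of 19 early and heat shock genes 8 were higher and none lower. The same genes stood higher in the stromal cells of the 16 w library too, with Hspa1a at 388 CPM at 3 w and 1181 CPM at 16 w, Hspa1b at 216 and 1073 CPM and Hsp90aa1 at 768 and 1429 CPM, and the part of a change common to the library was not tested. Cenpf came from a single 16 w cell.

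Lyve1 was 3.46-fold higher at 16 w than at 3 w (3.19 to 3.76), and Retnla, which encodes a secreted protein of alternatively activated macrophages, was at 0, 5.33, 137 and 175 CPM from 3 d to 78 w. Retnla was concentrated in few cells, 7 of 79 at 16 w and 22 of 176 at 78 w. Cytl1 was at 0.299, 7.99, 982 and 603 CPM and had the largest ratio at 16 w over 3 w. It stood higher still in stromal cells (2149 CPM at 16 w). A single 16 w cell held 603 of its 975 UMIs, and a single 78 w cell held 389 of 1128. In members under 10000 CPM of fibroblast markers Cytl1 had no UMI at 3 w. Its level in that set was 45.3 CPM at 16 w and 55.6 CPM at 78 w. The remaining lists had 1 higher and 3 lower of 17 resident genes, 2 lower of 8 lining genes, none past 2-fold of 8 class I and 4 class II presentation genes, 1 higher and 1 lower of 9 complement genes, 1 higher and 2 lower of 14 iron genes, 3 lower of 11 interferon genes (none of 5 under the fibroblast limit), none of 6 cell cycle genes (3 lower of 5 under the limit) and 1 lower of 19 transcription factors.

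From 16 w to 78 w the normal profiles differed least by count. Of 3799 genes, 113 (2.97%) were higher at 78 w and 98 (2.58%) lower. This split rested on the settings, with 183 higher and 56 lower under TMM scaling, 111 and 52 without members over 2 times the median UMIs, and 243 and 290 at a minimum of 20 UMIs, where more genes were lower. Among 1066 genes above the stromal level the counts were 60 (5.63%) and 28 (2.63%). Chemokines stood higher again, 8 of 17 with none lower, though only 3 of 13 tested in the members under 10000 CPM of fibroblast markers. Ccl12 was at 32.2 CPM at 16 w and 227 CPM at 78 w, 7.05-fold higher (4.92 to 10.4), Ccl2 was 2.58-fold higher (2.37 to 2.81), and Ccl8 was at 16.1 and 104 CPM. Clec4e was 7.96-fold higher (3.91 to 18.9), and Spic 3.86-fold (2.05 to 8.04). At 16 w these 2 genes had 8 UMIs in 5 cells and 11 UMIs in 6 cells. At 78 w 1 cell held 51 of 120 Clec4e UMIs, and 1 cell held 21 of 80 Spic UMIs. The intervals do not cover such clumping in single cells. Cd209a had 56 UMIs in 7 members at 78 w and none in any other library. Heat shock and early genes were lower, 11 of 18 with none higher. Lipid genes were 2 of 11 higher, matrix genes 7 higher and 1 lower of 14 (2 and none of 11 under the fibroblast limit), scavenger receptors 3 of 15 higher, complement genes 2 of 9, lysosomal genes 2 of 23, surface receptors 2 of 19, inflammatory genes 2 of 12 (1 higher and 1 lower of 10 under the limit), and resident, class II, growth factor and interferon genes 1 each of 17, 6, 15 and 7. Lining and transcription factor genes had 1 lower each of 9 and 19, and iron, class I and cell cycle genes none of 13, 6 and 3.

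Across the whole span, 78 w over 3 d, 659 (10.6%) of 6223 genes were higher and 946 (15.2%) lower, and above the stromal level 276 (19.5%) and 203 (14.4%) of 1413. Resident genes were higher in 9 of 18 and lower in 1. Lyve1 was 3.33-fold higher (3.14 to 3.53), Timd4 9.89-fold (5.86 to 17.7) and Cd163 2.13-fold (1.91 to 2.38). Vsig4 was 133-fold higher (78.9 to 244), Lyz2 11.8-fold (11.4 to 12.2) and Retnla at least 196-fold. Complement genes were higher in 6 of 11 and lower in 2 (3 and 2 of 9 under the fibroblast limit, where the median log2 ratio was 0.29 in place of 1.05), with C4b at 6.58, 55.2, 143 and 274 CPM by age. Inflammatory genes were lower in 9 of 18 and higher in 3, and interferon genes lower in 9 of 14 and higher in 3. Tnf was 6.88-fold lower (6.32 to 7.49). Transcription factors were higher in 9 of 19, lysosomal genes in 5 of 24 and class I genes in 3 of 8, with none lower. The other lists split as 6 higher and 1 lower of 14 iron genes, 5 and 3 of 16 lipid genes (2 and 5 in the members under the fibroblast limit), 5 and 2 of 9 lining genes, 5 and 6 of 19 chemokines, 5 and 2 of 17 scavenger receptors, 4 and 1 of 20 surface receptors, 4 and 2 of 17 growth factors, 6 and 3 of 16 matrix genes (4 and 5 of 14 under the limit), 6 and 2 of 18 early and heat shock genes, and 3 and none of 6 class II presentation genes.

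In the injured disc, 8 of 14 chemokines and 7 of 11 inflammatory genes tested were lower in members than in those of both the 3 w and the 16 w disc, the nearest normal ages, with 6 of 12 and 3 of 9 in members under the fibroblast limit. Not all of their genes stood low, as Ccl8 was at 59.4, 16.1 and 104 CPM at 3 w, 16 w and after injury, and Il1b at 112, 3.02 and 9.49 CPM. A gene was counted as lower where it was 2-fold or more below the smaller of these 2 levels and as higher where it was at least 2 times the larger. Over all members 497 (12.6%) of 3951 genes were lower and 305 (8.36%) of 3648 higher, whereas TMM scaling gave 277 lower and 442 higher. The median of all genes tested was -0.22 over 3 w and -0.29 over 16 w on the log2 scale. Above the stromal level 221 (27.1%) of 817 were lower and 15 (2.96%) of 507 higher. For higher genes the stromal level was read in the injured library, whose members held the most fibroblast RNA. For lower genes it was read in the 3 w or 16 w library. The filter therefore helps to set this split, which is a description. Under 10000 CPM of fibroblast markers the counts were 248 (9.39%) of 2641 lower and 121 (7.57%) of 1598 higher. The lists instead count genes tested in either direction, for which these counts are out of 4667 over all members and 2809 under the limit. Ccl3 was at 1394, 1228 and 101 CPM at 3 w, 16 w and after injury, and at 1747, 1673 and 217 CPM in the members under that limit, 8.05-fold (6.75 to 9.68) and 7.71-fold (6.43 to 9.32) lower. Cxcl2 was at 13992, 8440 and 3450 CPM in these members, Ccl2 at 2333, 886 and 414 CPM, and Ccl4 at 612, 737 and 217 CPM. Cxcl10 had 3 UMIs in the injured members, 5.01 CPM under the limit beside 92.3 and 71.0 CPM. The activation marker Cd83 was at 767, 1298 and 254 CPM, Ptgs2 at 96.9, 118 and 8.34 CPM, and Hmox1 at 5578, 4215 and 1223 CPM. None of the tested genes of the 2 lists was past 2-fold higher in either set, Ccl8 lying just short of it under the limit at 90.4, 18.1 and 180 CPM. Il10 and Il6, cytokines with too few UMIs to be tested, stood higher under the limit. Il10 was there at 6.50, 1.51 and 31.7 CPM (19.1 to 49.5, 19 UMIs), and Il6 at 0.650, 1.51 and 16.7 CPM (10 UMIs), whereas over all members Il6 was at 27.0, 1.01 and 6.96 CPM. The injured members held 11 Il6 UMIs in 2 cells, with 10 of them in 1 cell, so the injured Il6 level is not read further.

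Some resident macrophage genes were lower as well, 4 of 15 over all members and 2 of 15 under the fibroblast limit. The latter share was near that of all genes tested in either direction, 248 of 2809. Mrc1 was at 678, 698 and 209 CPM over all members and at 912, 801 and 422 CPM under the limit, 2.16-fold (1.89 to 2.48) below 3 w and 1.90-fold (1.63 to 2.21) below 16 w. Lyve1 was at 530, 1697 and 270 CPM under the limit, 1.96-fold (1.65 to 2.34) below 3 w and 6.28-fold (5.32 to 7.45) below 16 w, and in 18.9% of these injured members after thinning beside 42.6% and 74.2%. Cd163 was at 443, 440 and 170 CPM, and the ficolin Fcna at 179, 154 and 36.7 CPM. P2rx7, the ATP-gated channel, was at 279, 181 and 46.7 CPM. By contrast Sepp1, the selenium carrier, was at 2270, 1969 and 1374 CPM over all members but at 2882, 2268 and 2641 CPM under the limit, where the injured level lay between the other 2. F13a1 was at 905, 1478 and 686 CPM. Lower scavenger receptors numbered 5 of 13, and 2 of 12 under the limit, and lower iron genes 6 of 13, and 3 of 8 under the limit. Retnla had no UMI after injury, at least 72.2-fold below 16 w and at least 40.8-fold under the limit, but its 16 w level came from 7 cells. At 3 w it had only 14 UMIs in 3 cells, at least 2.81-fold above the injured level, and 1 UMI under the limit.

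Of the genes above the stromal level 15 were higher after injury over all members, a count that the filter helps to set. Ccr2 had 58 UMIs in 39 of 424 injured members, 36.7 CPM beside 1.14 CPM at 3 w and 0 at 16 w, and was at 78.4 CPM under the fibroblast limit. It was found in 8.37% (5.32 to 12.4) of thinned injured members, beside 0.495% at 3 w, none of 76 at 16 w (which allows up to 3.95%) and 0.0709% of injured stromal cells (9.20%, 0.957%, 0% and 0.113% without thinning). Ly6c2 was not found. Gm2a, a lysosomal cofactor, was at 82.2, 68.5 and 165 CPM at 3 w, 16 w and after injury (86.5, 57.4 and 227 CPM under the limit). The cholesterol exporter Abcg1 was at 28.5, 20.2 and 54.4 CPM, past 2-fold under the limit only, at 37.7, 25.7 and 110 CPM. Trem2 did not pass 2-fold, at 559, 316 and 674 CPM under the limit. It was detected in 49.8% (43.6 to 56.0) of all thinned injured members beside 55.9% at 3 w and 32.9% at 16 w, and in 68.9% (60.8 to 76.3) beside 60.6% (52.5 to 68.4) and 32.3% of those under the limit, so its order to 3 w turned with the set and both pairs of intervals overlapped. Ifi27l2a, an interferon-induced gene, was at 1670, 1431 and 3834 CPM under the limit. Short of 2-fold were Cx3cr1 at 42.9, 68.0 and 115 CPM and Cebpb at 2019, 984 and 2321 CPM. Dennd5b was at 11.8, 8.06 and 208 CPM, but 1 injured cell held 194 of its 329 UMIs. Lst1 and Cd52 were at 118 and 146 CPM beside 24.0 and 44.9 at 3 w, and at 210 and 265 CPM beside 32.5 and 60.5 under the limit. Among the named genes of largest ratio, Gm10800, Gm26870 and Gm21738 are predicted genes whose reads may come from near-identical copies, and Slurp1 was in 16 cells.

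**Figure D5:**
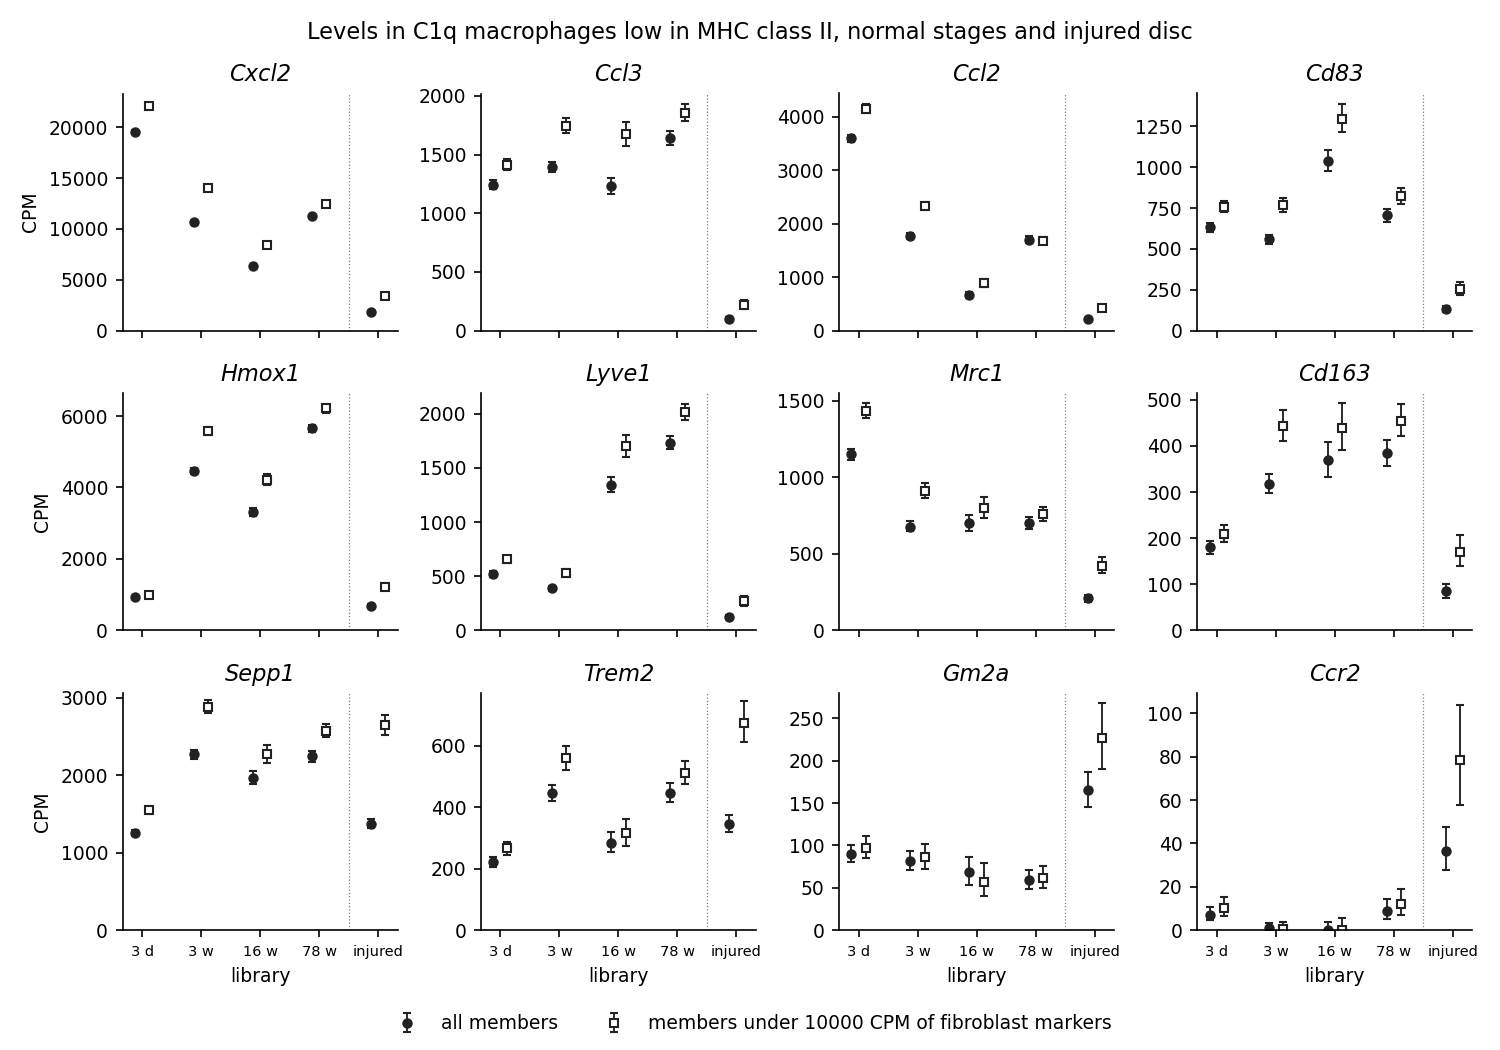
CPM of 12 genes in C1q macrophages low in MHC class II, by library, with exact 95% Poisson intervals; filled circles are all members, open squares members under 10000 CPM of fibroblast markers, and the dotted line sets off the injured disc. Cxcl2, Ccl3, Ccl2, Cd83 and Hmox1 stay below 3 w and 16 w in both sets, Sepp1 does not under the limit (2641 CPM beside 2882 and 2268), and Ccr2 is at 36.7 and 78.4 CPM after injury.

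Sex went with the injury. Xist, the RNA of the inactive X chromosome, was at 757 CPM in the mixed 3 d pups, at 0 in the 3 male libraries and at 483 CPM in the injured members, while the Y-linked Ddx3y was at 33.8, 115, 121, 110 and 0 CPM and Eif2s3y and Uty were also at 0 after injury. Per the study's methods the Myh11-CreER transgene lies on the Y chromosome and males alone were used for tracing, whereas no UMI of these Y-linked genes was found in the injured members. Injury, age, sex, sequencing depth, the library and, by the study's methods, genotype cannot be told apart. Of the genes tested for each direction 12.6% were lower and 8.36% higher after injury, and 9.39% and 7.57% under the fibroblast limit. The lists count genes tested in either direction. On that basis 497 of 4667 genes were lower and 305 higher, and 248 and 121 of 2809 under the limit. List counts near these shares are not read as a result about the list. Of 18 surface receptors 1 was higher (Ccr2) and 5 lower, 2 of 16 lower under the limit. Of 8 complement genes 3 were lower, 1 of 5 under the limit. Of 13 lipid genes 1 was lower, and under the limit 2 of 12 were higher. Of 19 transcription factors 1 was higher and 3 lower, and 1 of 17 lower under the limit, Runx1 at 503, 375 and 115 CPM. Early and heat shock genes were lower in 3 of 18, 5 under the limit, with Zfp36, which decays cytokine RNAs, at 1120, 1570 and 445 CPM. Of 15 matrix genes 3 were higher, 2 of 9 under the limit, and Sparc stood at 7584 CPM over all injured members against 362 under the limit. Of 23 lysosomal genes 1 was higher in both sets, Gm2a. Of 4 class II presentation genes 2 were lower, Cd86 and Cd83, and under the limit 2 of 3. Lining genes had 1 of 9 lower, and under the limit 1 higher and 1 lower of 9. Interferon genes had 1 lower of 5 (Cxcl10), and under the limit 1 higher (Ifi27l2a) and none lower of 4. Cell cycle genes had 1 lower of 4, and under the limit none of 3. Of 15 growth factors and 7 class I genes none was past 2-fold, nor of 12 and 6 under the limit.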

How the data were processed

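Droplet single-cell RNA sequencing (10x 3' chemistry) was made from TMJ discs digested with Pronase and then Collagenase P, 1 library per condition. The deposited values are raw UMI counts per gene and cell. According to the submitters' processing notes the authors used Cell Ranger 3.1 and the build mm10, whereas the matrix headers name version 4.0.0. No removal of doublets is described, and none was done here, but results were also computed without members over 2 times the median UMIs.

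The retained cells, the member rule, the gene lists and the tests were chosen with earlier results of these data known. Per library, member UMIs were summed and scaled to CPM. Poisson intervals were computed for levels and for ratios, and Clopper-Pearson intervals for shares, at 95%. These cover counting error only, and 3 UMIs or 3 cells set the upper limit for a count of 0. A gene was tested between libraries with at least 50 UMIs and counted at 2-fold or more, with no p-value. Stromal cells held at least 3 UMIs of Col1a1, Col1a2, Dcn and Comp together and no Tyrobp, Fcer1g or Cdh5.

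Classes were compared with edgeR 4.0.16 (R 4.3.3, limma 3.58.1), TMM scaling, library as a block and Benjamini-Hochberg adjustment at 5%. On data simulated for this comparison 193 of 200 genes changed 4-fold were called. DESeq2 1.42.0 served as an alternative. Python 3.11.15 with NumPy 2.4.6, SciPy 1.17.1, pandas 2.3.3 and Matplotlib 3.10.9 was used elsewhere. Named genes were the rule genes and markers, the 6 largest ratios in each direction between libraries, the 12 largest folds in each direction between classes among genes that moved the same way in all 5 libraries, and, per list, the 4 most abundant members, the 3 with the largest range over normal stages and the 2 that differed most after injury. Other genes named were chosen after their values were seen. Genes at least 2 times above the stromal level, the limit of 10000 CPM of fibroblast markers and a limit of 10 C1q UMIs were chosen after seeing the data. Of the list genes Selenop (present as Sepp1), Itgam, Clec7a, Trac and Trbc2 were not matched by symbol. Promoter sequences came from RefSeq on GRCm38.p6 and gene positions from GENCODE M21. A few genes of these lists are counted but not reported here by name.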

Additional observations from a re-analysis of the deposited data

How the results depend on the processing

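With 1 library per condition no comparison between conditions could leave out a replicate, and no paired analysis was possible because each condition has a single library, so that its number pairs nothing. The comparison of classes has the library as a block. Counts of genes past 2-fold depended on the minimum of UMIs and on which members were read. The main counts are 1819, 529, 211 and 1605 for 3 w over 3 d, 16 w over 3 w, 78 w over 16 w and 78 w over 3 d, and 305 higher and 497 lower for the injured disc. At a minimum of 20 UMIs they were 2756, 1012, 533 and 2567, with 462 and 814. For members found after thinning every cell to 2000 UMIs they were 471, 143, 60 and 387, with 114 and 79, since fewer UMIs are summed. Genes above the stromal level gave 561, 250, 88 and 479, with 15 and 221. Members under 10000 CPM of fibroblast markers gave 125 for 78 w over 16 w and 121 higher and 248 lower after injury. Without members over 2 times the median UMIs the injured counts were 153 and 330, TMM scaling gave 277 lower, and at least 10 C1q UMIs gave 152 higher.

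The share of retained cells was 1.47% at 3 d and 3.04% after injury with at least 10 C1q UMIs, 1.39% at 78 w with 0 MHC class II UMIs, 3.34% after injury at 2000 UMIs, and 1.38%, 1.73% and 2.75% at 3 d, 3 w and after injury under the fibroblast limit. The low share of C1q macrophages was 96.6%, 88.3%, 73.1%, 54.7% and 79.6% from 3 d to injury with 0 UMIs allowed, and 97.0% at 3 w and 80.2% at 78 w at 2000 UMIs.

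The class comparison called 157 genes. DESeq2 called 104 (86 of them shared), no filter on low counts 282, 0 against at least 5 MHC class II UMIs 245, cells thinned to 2000 UMIs 36, the fit without the library block 14, and members and others under the fibroblast limit 249 (141 shared). Leaving out 1 library in turn gave 69 to 169.

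Single genes turned over. Log2 ratios of Cenpf were -0.70 at 16 w over 3 w and 0.30 at 78 w over 16 w without members over 2 times the median UMIs, and -1.45 and 0.31 under the fibroblast limit, as 1 cell carried it. At 2000 UMIs Krtdap was at 0.39 and Ifit3 at 0.66 (16 w over 3 w), Il6 at -0.37 (78 w over 16 w) and Gm21738 at -0.10 (injured). Under the fibroblast limit Prg4 was at -0.01 (3 w over 3 d) and Angptl7 at 0.22 (78 w over 16 w). Beyond Cenpf and the thinned sums, the cause was not tested. Of the genes named between classes, Ctla2a, Akr1b8, Tlr13, Cacna1a, Dok3 and Uaca lost their call without 1 library or more and, together with S1pr1, in DESeq2 (7 of 24). Without the library block 15 of the 24 lost theirs, and under the fibroblast limit 1 did.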
